A study of Mus musculus with 16 samples.

Results

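Atf4, 20 genes known as its targets or partners in the integrated stress response and in amino acid supply, and 16 cytosolic aminoacyl-tRNA synthetases are described here, 37 of the 56748 gene identifiers counted. They were chosen by gene symbol, with earlier results of these data known, and all 37 had reads in every sample. By role, 11 belong to the stress response itself, 7 to amino acid and folate synthesis, 3 to amino acid transport and 16 to tRNA charging. The samples were TM4 cells, an established mouse line used as a Sertoli cell model, which were given 2.5 µg of plasmid per well with a lipid reagent and lysed 24 h later. The plasmid carried gdf6Y, the male sex determinant of the turquoise killifish and a growth factor of the TGF-β family, in 5 samples (gdf6Y), its mutant variant del9, with a short in-frame deletion in the prodomain, in 5 samples (del9), or no insert in 6 samples (empty vector, EV). All groups therefore shared the lipid transfection, and untransfected cells were not analysed here. The share of cells that took up a plasmid is not given in the sources used here, and reads of the killifish transgene were not analysed here. Nothing states that the replicates came from separate cultures, so p-values measure the spread between these samples only.

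Each sample had between 21486850 and 26444903 reads counted on genes. The BMP target Id1, which checks the labels, had a mean of 1035 normalized counts with EV, 1927 with gdf6Y and 1235 with del9. Id1 with gdf6Y was thus higher than with EV by 0.90 on the log2 scale (SE 0.03, adjusted p = 2.7e-102), and del9 lay between them. In bulk samples like these, fewer cells that express a gene and less RNA per cell cannot be told apart. Of 9 Sertoli cell markers, Gata4 (831 ± 6.04, SD, n = 6, with EV) and Kitl (707 ± 19.6) were clearly counted, Wt1 had no read, and Fshr and Cldn11 were near 0. The summed markers of germ cells, macrophages, endothelium and Leydig cells stayed at or below 35.8 normalized counts per list and sample. The summed Sertoli markers were 1681 to 1769 with EV, 1495 to 1619 with gdf6Y and 1570.4 to 1734 with del9, and their part in the results was not tested. Normalized counts are reads scaled by TMM to a common library size, the mean over the 16 samples.

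The integrated stress response starts when a kinase senses amino acid shortage, misfolded protein in the endoplasmic reticulum, heme shortage or double-stranded RNA and phosphorylates the initiation factor eIF2. Global translation then falls while the Atf4 protein is translated more, and Atf4, with partners of the C/EBP family, raises genes for amino acid uptake and synthesis, tRNA charging and redox defence. Because Atf4 is controlled mainly at translation, its transcript alone does not report the activity of the pathway, whereas its target transcripts are the usual readout. In Sertoli cells, which feed developing germ cells, amino acid transport and the serine and glutathione pathways are part of normal metabolism.

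Atf4 and C/EBP proteins bind a composite element, the C/EBP-ATF response element, searched here as TGATGNAA and its reverse complement TTNCATCA. RefSeq promoter windows (GRCm38.p6, placed in GRCm39 by exact match), from 250 bases before to 50 bases after the start, were found for 28 of the 37 genes. A match lay in 10 of these 28 genes (35.7%), compared with 4.51% of the 27025 genes with a window (3.97% of all 32851 windows). Besides the genes printed here, Trib3, Gars1, Tars1 and Yars1 held 1 match and Aars1 held 2, and no window was given for Aldh1l2, Slc7a5, Cars1, Hars1, Lars1, Nars1, Rars1, Vars1 and Wars1. The members include textbook targets of this element, so the share describes the list. The windows below are shown because they belong to genes the results turn on and to Asns, a common reporter of the pathway, and capitals mark the match, 5′ to 3′ on the strand of the gene.
Slc7a11, first match: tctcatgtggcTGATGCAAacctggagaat
Slc7a11, second match: acctggagaatTTGCATCAtcatgcagccc
Chac1: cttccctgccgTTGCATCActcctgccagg
Nupr1: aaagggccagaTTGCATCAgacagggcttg
Iars1: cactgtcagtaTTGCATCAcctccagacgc
Asns: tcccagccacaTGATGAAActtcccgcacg
Slc7a11 held 2 matches in opposite orientation, which began at positions -66 and -47 from the start, in chr3:50398110-50398139 and chr3:50398091-50398120 (GRCm39, minus strand), just upstream of the annotated gene at chr3:49846975-50398070. Slc7a11 and Aars1 were the members with 2 matches, and 0.0700% of all windows held 2 or more. The match of Chac1 began at position -193 from its RefSeq start (chr2:119181519-119181548, plus strand), that of Nupr1 at -110 (chr7:126224734-126224763, minus strand) and that of Asns at -23 (chr6:7693214-7693243, minus strand). The Chac1, Nupr1 and Asns windows lie inside the annotated gene, which begins further upstream than the RefSeq start. In Iars1 the match lay 7 bases after the start (chr13:49835602-49835631, plus strand), also inside the annotated gene. Of the 10 genes with a match, 4 were called in at least 1 comparison below, of the 18 with a window but no match 5, and of the 9 without a window 4. The share of all genes called in at least 1 comparison was not computed, and whether the element goes with the calls was not tested.

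Per length of exon, Atf4 was the most abundant of the 37 transcripts with EV, at 193 ± 3.91 RPKM (SD, n = 6). The serine pathway enzymes Psat1 (162 ± 2.22 RPKM) and Phgdh (110 ± 1.87 RPKM) followed. The synthetases ranged from 97.4 RPKM for Nars1 to 11.2 RPKM for Cars1. Slc7a11, at 2.61 ± 0.135 RPKM, and the secreted stress hormone Gdf15, at 0.0766 ± 0.0302 RPKM, were lowest. Gdf15 had only 1 to 7 reads per sample, too few to show a difference at this depth. Some neighbours in this order, such as Phgdh and Shmt2 (109 ± 1.69 RPKM), differed by less than the SD of either, and lengths cover every annotated exon, so the order rests on the annotation.

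With gdf6Y against EV, 7 of the 37 genes passed the test (the quasi-likelihood F-test of edgeR, adjusted by Benjamini-Hochberg over all genes, called below 0.05). Of these, 6 were lower and 1 was higher. Lower were the cystine transporter gene Slc7a11, the glutathione-degrading enzyme Chac1, the mitochondrial folate enzyme Aldh1l2, the mTOR inhibitor Ddit4 and the synthetases Eprs1 and Iars1, while the transcription factor Ddit3 (CHOP) was higher. Among all 26316 genes tested, 5.08% were called, and 1.70% were called higher and 3.38% lower. Among the 7518 genes with a mean of at least 500 normalized counts, an abundance that 36 of the 37 genes reach, 15.7% were called (5.25% higher and 10.4% lower). The share of 18.9% among the 37 was thus near that of genes above this level, which were not otherwise matched to the 37 in abundance. The median log2 fold change of the 37 genes was -0.02, compared with -0.0021 for all genes tested.

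With del9 against EV, 12 of the 37 genes passed the test, 6 in each direction. Slc7a11, Chac1, Aldh1l2, Ddit4 and Eprs1 were lower as with gdf6Y, joined by the stress-induced chromatin protein gene Nupr1. Ddit3, the serine synthesis enzyme Phgdh and the synthetases Hars1, Kars1, Rars1 and Wars1 were higher. Of all 26226 genes tested, 9.25% were called (4.82% higher and 4.43% lower), and of the 7518 abundant genes 25.8% (15.2% higher and 10.6% lower), compared with 32.4% of the 37. Both comparisons use the same 6 EV samples and are not independent.

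Between gdf6Y and del9, only Nupr1 was called, as higher with gdf6Y, beside 1.01% of the 25878 genes tested (0.599% higher and 0.410% lower) and 2.31% of the abundant genes (1.06% higher and 1.25% lower). With DESeq2, and with edgeR after the filterByExpr filter on low counts, none of the 37 was called. At an unadjusted p below 0.05, 2 of the 37 passed in the main test, 2 with filterByExpr and 4 with DESeq2.

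The test as designed keeps every gene with a read, and its estimate of the prior degrees of freedom was then 738 for gdf6Y against EV and infinite for the others, beside 8 or 9 residual degrees of freedom. A gene's own spread then had almost no weight, so genes that vary between replicates were called more readily. After filterByExpr the prior degrees of freedom were between 9.57 and 10.9, and adjusted p-values from this fit are given beside the calls it changes. For gdf6Y against EV it called 6 of the 37 genes, all lower, beside 9.31% of 12689 genes tested (3.59% higher and 5.71% lower). For del9 against EV it called 9, of which 4 were higher and 5 lower, beside 16.7% of 12696 genes (8.45% higher and 8.29% lower). For gdf6Y against del9 it called none, beside 0.356% of 12630 genes (0.206% higher and 0.150% lower).

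Among the 37 genes, 5 had non-overlapping groups with gdf6Y lower than EV (Slc7a11, Aars1, Eprs1, Iars1 and Lars1) and none higher, beside 1.35% lower and 1.26% higher among all genes tested and 3.96% and 3.75% among the abundant genes. With del9 against EV, 3 were lower (Slc7a11, Aars1 and Eprs1) and 1, Hars1, was higher, beside 1.60% and 2.17% of all genes tested and 4.18% and 6.93% of the abundant genes. Between gdf6Y and del9, Hars1 and Lars1 were lower in every gdf6Y sample and none was higher, beside 0.734% and 0.560% of all genes tested and 1.88% and 0.851% of the abundant genes. Neither gene passed the test.

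**Figure D1:**
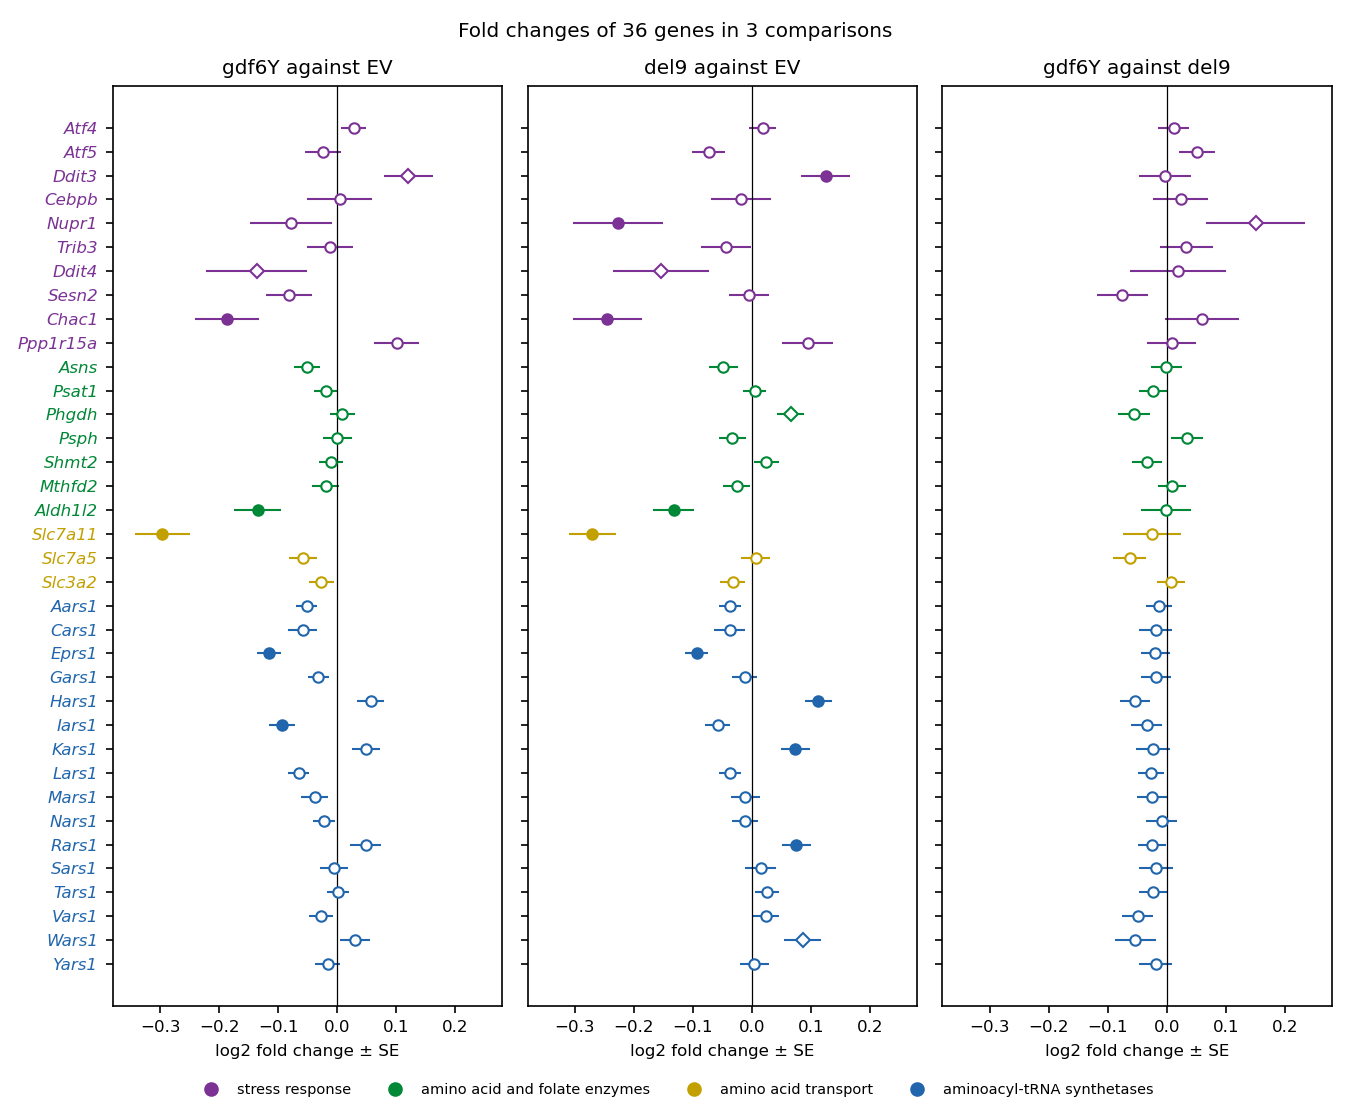
Log2 fold changes (x axis) ± SE of 36 genes (y axis, coloured by role) in the 3 comparisons, from the fit after filterByExpr, which leaves out Gdf15. Filled circles passed both this fit and the main test, diamonds passed the main test only, and open circles did not pass the main test. Slc7a11 lies farthest to the left in both comparisons with EV, and no gene is filled between gdf6Y and del9.

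Slc7a11 (ENSMUSG00000027737) encodes the light chain of the cystine/glutamate antiporter, which supplies cysteine for glutathione. Its normalized counts with EV, for replicates 1 to 6, were 1019, 935, 1050.0, 1049, 987 and 939.5. With gdf6Y, replicates 1 to 5 had 905, 798, 789, 832 and 729.6, and with del9 842, 845, 784, 881 and 795. No sample with an insert reached the lowest EV sample, and both inserts overlapped each other. The log2 fold change was -0.30 for gdf6Y (SE 0.04, adjusted p = 7.6e-11) and -0.26 for del9 (SE 0.04, adjusted p = 2.4e-09). With filterByExpr the adjusted p-values were 0.0011 and 0.00046. Between gdf6Y and del9 the difference was -0.03 (95% interval -0.11 to 0.06). The call against EV held in all 10 alternatives and without any 1 replicate, in both comparisons.

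The other transport genes did not pass. Slc3a2 encodes the heavy chain that carries both transporters to the membrane, and its log2 fold change was -0.03 with gdf6Y and -0.03 with del9. Slc7a5, the large neutral amino acid transporter, had -0.06 with gdf6Y (adjusted p = 0.24) and 0.01 with del9 (adjusted p = 0.80). The heavy chain shared with Slc7a11 differed from its EV mean by at most 1.99%.

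Chac1 (ENSMUSG00000027313, chr2:119180757-119184866, plus strand) encodes an enzyme that cleaves glutathione inside the cell. Its normalized counts with EV were 2054, 1692, 1802, 1924, 1656 and 1823, with gdf6Y 1767, 1489, 1569.6, 1722 and 1458, and with del9 1642, 1461, 1549, 1744 and 1333. Replicates 1 and 4 were the highest samples of every group, and all groups overlapped. On the log2 scale the difference from EV was -0.19 with gdf6Y (SE 0.03, adjusted p = 5.8e-06) and -0.24 with del9 (SE 0.03, adjusted p = 8.7e-11). The calls held with filterByExpr (adjusted p = 0.037 and 0.0081) and without any 1 replicate. They were lost with a robust dispersion estimate, at adjusted p = 0.18 and 0.13. With the replicate number as a block after filterByExpr both passed (adjusted p = 4.8e-05 and 6.4e-06), although no label states that equal numbers pair the samples.

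Of the 7 amino acid and folate enzymes, Aldh1l2 was lower in both comparisons and Phgdh was higher with del9. Of the abundant genes, 10.4% were called lower and 5.25% higher with gdf6Y, and 10.6% lower and 15.2% higher with del9. Aldh1l2 (ENSMUSG00000020256, chr10:83323314-83370005, minus strand), which releases carbon dioxide from formyl-tetrahydrofolate in mitochondria, had 6850.2, 6229, 6810.0, 6959, 6248 and 6540.4 normalized counts with EV. With gdf6Y it had 6592, 5663, 6031, 6249.7 and 5510.4, and with del9 6402, 5988, 5870.2, 6278 and 5692. The groups overlapped, with replicates 1 and 4 of both inserts above the lowest EV sample. Relative to EV the log2 fold change was -0.14 with gdf6Y (SE 0.03) and -0.13 with del9 (SE 0.03), both at adjusted p = 9.2e-05. With filterByExpr the adjusted p-values were 0.040 and 0.013, and the call held in all 10 alternatives and without any 1 replicate.

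Phgdh, which opens the serine pathway, had a log2 fold change of 0.01 with gdf6Y and 0.07 with del9 (adjusted p = 0.049), a call lost with filterByExpr (adjusted p = 0.055) and in 10 of the 11 fits without 1 replicate, where it ranged from 0.06 to 0.09 (adjusted p up to 0.23) and held only without del9 replicate 2. A length correction lowered the Phgdh value to 0.03 (adjusted p = 0.54), and with all 3 groups in 1 model it was not called (adjusted p = 0.10). Asns, the asparagine synthetase used as a reporter of Atf4, had -0.05 (adjusted p = 0.35) and -0.04 (adjusted p = 0.40). Psat1, Psph, Shmt2 and Mthfd2, which complete serine synthesis and the mitochondrial folate cycle, lay between -0.03 and 0.03 in both comparisons and did not pass. Among the 7 enzymes, Asns, Psat1, Psph, Shmt2 and Mthfd2 thus differed from their EV means by at most 3.59%.

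The Atf4 transcript (ENSMUSG00000042406, chr15:80139372-80141745, plus strand) had 11602, 11137, 11221, 11424, 10963 and 11136 normalized counts with EV. It had 11761, 11334, 11157, 11594 and 11436 with gdf6Y and 11917, 11084, 11170.0, 11618 and 11334 with del9. The groups overlapped widely. Its log2 fold change was 0.03 with gdf6Y (95% interval -0.02 to 0.08, adjusted p = 0.57), 0.03 with del9 (95% interval -0.02 to 0.07, adjusted p = 0.56) and 0.01 between them (95% interval -0.05 to 0.07). A correction for gene length turned the sign of the comparisons with EV, to -0.01 with gdf6Y and -0.02 with del9, neither called.

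Ddit3, a transcription factor of prolonged stress whose second, 105-base identifier had no reads, had 924, 938, 859.6, 979, 844 and 896 normalized counts with EV. It had 1032, 978, 905, 1031 and 979.6 with gdf6Y and 1040.4, 938, 969, 1051 and 961 with del9. The inserts were higher on average and overlapped EV. On the log2 scale Ddit3 differed from EV by 0.12 with gdf6Y (SE 0.04, adjusted p = 0.042) and 0.13 with del9 (SE 0.04, adjusted p = 0.0094). With filterByExpr the adjusted p-values were 0.078 and 0.045, and without 1 replicate the calls were lost in 7 and 3 of 11 fits. The calls for gdf6Y were lost without gdf6Y replicates 1, 2, 4 or 5 or EV replicates 3, 5 or 6, and those for del9 without del9 replicates 1 or 4 or EV replicate 5, at log2 fold changes of at least 0.10 and 0.11 and adjusted p up to 0.15 and 0.073.

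Nupr1, a small stress-induced nuclear protein, had 1333, 1098, 1258, 1337, 1046 and 1238 normalized counts with EV. With gdf6Y it had 1341, 975, 1134, 1213 and 1098, and with del9 1239.8, 903, 944, 1167 and 967. Nupr1 had a log2 fold change of -0.22 with del9 (adjusted p = 1.8e-07, and 0.046 with filterByExpr), -0.08 with gdf6Y (adjusted p = 0.30) and 0.15 between gdf6Y and del9 (adjusted p = 0.031, and 0.60 with filterByExpr). DESeq2 called none of these 3 differences (adjusted p = 0.12 for del9). With a robust dispersion estimate the del9 difference from EV did not pass (adjusted p = 0.33). With the replicate number as a block after filterByExpr it passed (adjusted p = 0.00029), although no label states that equal numbers pair the samples. The blocked fits between gdf6Y and del9 are given at the end. Without gdf6Y replicates 1 or 4 or del9 replicates 2, 3 or 5, the call between gdf6Y and del9 was lost, with a log2 difference down to 0.09 (adjusted p up to 0.58).

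Ddit4 (REDD1), which restrains mTORC1, had 3563, 2471, 2776, 3201, 2549 and 2923 normalized counts with EV. With gdf6Y it had 3128, 2199, 2470.3, 2863 and 2584, and with del9 2979, 2307, 2412, 2969 and 2474. The spread within each group was wider than the difference between the means, 2914 with EV, 2649 with gdf6Y and 2628 with del9. The log2 fold change was -0.14 with gdf6Y (adjusted p = 0.0018) and -0.15 with del9 (adjusted p = 3.4e-05), and with filterByExpr neither passed (adjusted p = 0.35 and 0.20). Without EV replicate 1, the highest of the 16 values, the log2 fold changes were -0.07 (adjusted p = 0.33) and -0.08 (adjusted p = 0.086), and without gdf6Y replicate 2 the gdf6Y value was -0.08 (adjusted p = 0.19). With the replicate number as a block after filterByExpr, both differences from EV passed (adjusted p = 0.0026 and 0.00059). Nothing in the labels states that equal numbers pair the samples.

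The remaining stress genes were not called. Ppp1r15a (GADD34), which recruits the phosphatase of eIF2, had a log2 fold change of 0.10 with both inserts. The pseudokinase gene Trib3 had -0.01 with gdf6Y and -0.04 with del9, the Atf4 paralogue Atf5 -0.02 and -0.07, the C/EBP factor Cebpb 0.00 and -0.01, and Sesn2, a leucine sensor, -0.08 and 0.00. Thus, of the 11 stress genes, 2 were called lower and 1 higher with gdf6Y, and 3 lower and 1 higher with del9. Among the abundant genes, 10.4% were called lower and 5.25% higher with gdf6Y, and 10.6% lower and 15.2% higher with del9.

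**Figure D2:**
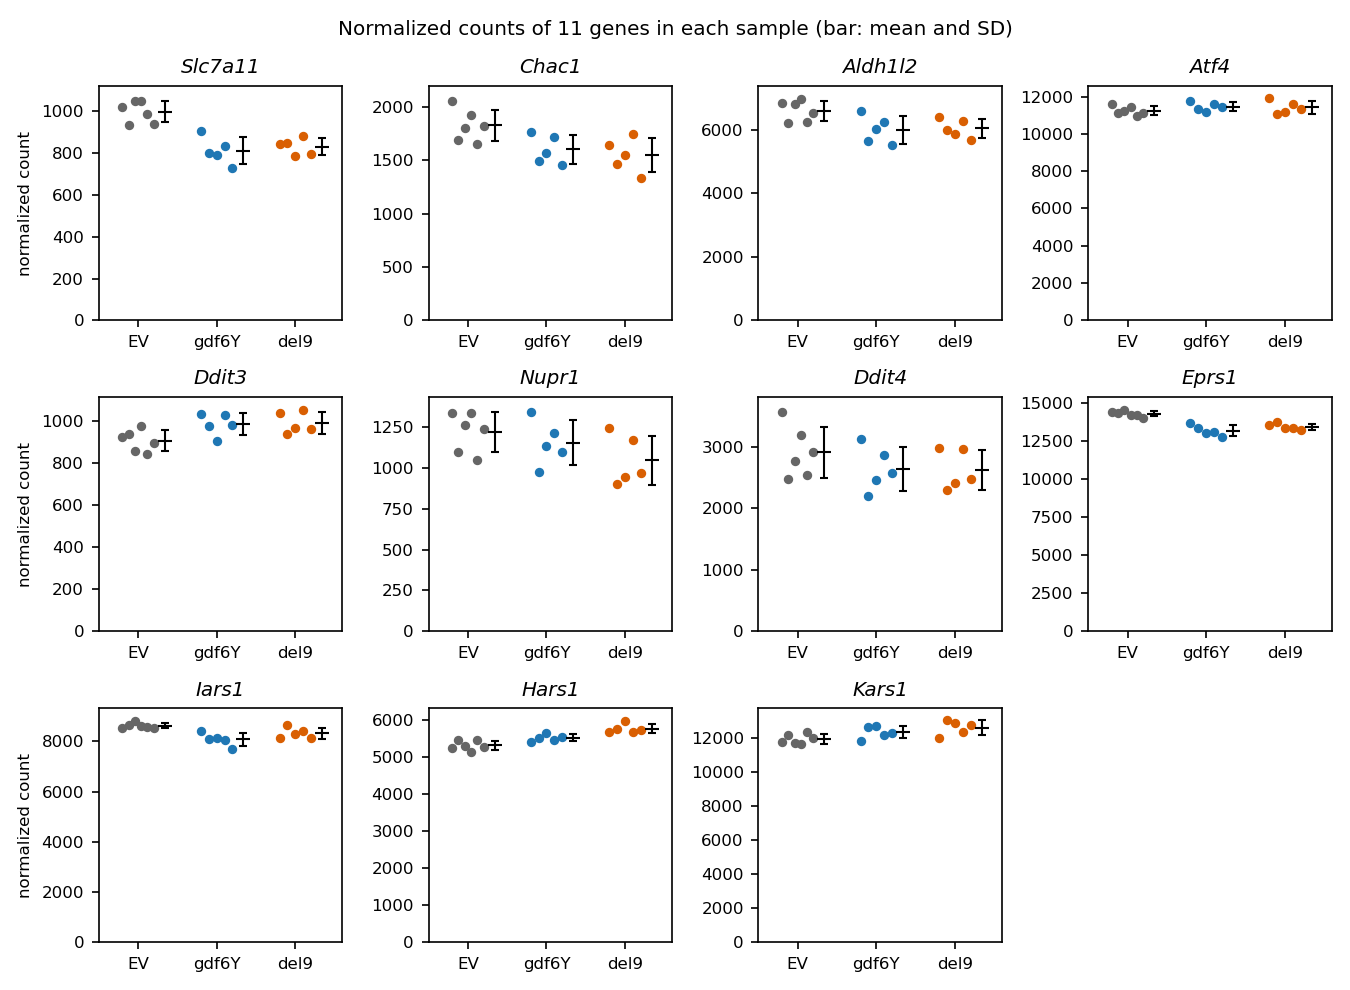
Normalized counts (y axis, from 0) of 11 genes in the EV, gdf6Y and del9 samples. Each point is 1 sample, in the order of its replicate number, and the bar is the mean with the SD. Slc7a11 and Eprs1 are lower in every sample with an insert than in any EV sample, and in Ddit4, Nupr1 and Chac1 the samples of each group spread widely, with replicate 1 the highest or second highest of every group.

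Aminoacyl-tRNA synthetases load each tRNA with its amino acid, and 6 of the 16 genes, with Eprs1 as a scaffold, belong to the multisynthetase complex. With gdf6Y against EV, 2 of the 16 were lower and none higher, beside 10.4% lower and 5.25% higher among the abundant genes. Eprs1 (ENSMUSG00000026615, chr1:185095101-185161840, plus strand), which charges glutamate and proline tRNAs, had 14405, 14383, 14587, 14245, 14229.6 and 14062 normalized counts with EV. It had 13686, 13398, 13065, 13104 and 12771 with gdf6Y and 13596, 13743, 13358, 13356 and 13246 with del9. Every sample with an insert was below every EV sample. For Eprs1 the log2 fold change was -0.12 with gdf6Y (SE 0.03, adjusted p = 0.00034) and -0.09 with del9 (SE 0.02, adjusted p = 0.0083). After a correction for gene length it was -0.01 in both, with adjusted p = 0.88 and 0.79. Eprs1 has the longest exonic sequence of the 37 genes (23315 bases).

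Iars1, the isoleucine enzyme, had 8539.8, 8647, 8825, 8626, 8588 and 8546 normalized counts with EV, 8401, 8103, 8126, 8055 and 7695 with gdf6Y and 8117, 8658, 8272, 8392 and 8139 with del9. All gdf6Y samples were below all EV samples, while del9 overlapped EV. The log2 fold change was -0.09 with gdf6Y (SE 0.03, adjusted p = 0.012) and -0.05 with del9 (adjusted p = 0.26), and the difference between gdf6Y and del9 was -0.04 (adjusted p = 0.65). Leaving out gdf6Y replicate 5 or EV replicate 3 ended the call, with a log2 fold change of -0.08 in both (adjusted p = 0.12 and 0.061).

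With del9 against EV, 4 synthetases were higher and Eprs1 was lower, beside 15.2% higher and 10.6% lower among the abundant genes. Hars1, the histidine enzyme, had 5250.3, 5467, 5298, 5148, 5470.4 and 5271 normalized counts with EV. It had 5402, 5529, 5665, 5473 and 5550.1 with gdf6Y and 5688, 5749, 5984, 5691 and 5724 with del9. All del9 samples were above all samples of EV and of gdf6Y. The log2 fold change against EV was 0.12 with del9 (SE 0.03, adjusted p = 0.00026) and 0.06 with gdf6Y (adjusted p = 0.295). A length correction lowered the del9 value to 0.07 (adjusted p = 0.058).

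Kars1, the lysine enzyme, had 11745, 12186, 11685, 11620.0, 12329 and 11997 normalized counts with EV, 11819, 12648, 12676, 12174 and 12304 with gdf6Y and 11965, 13026, 12845, 12348 and 12781 with del9. Only replicate 1 of del9 was not above all EV samples, and gdf6Y overlapped both. The log2 fold change was 0.08 with del9 (SE 0.03, adjusted p = 0.016) and 0.05 with gdf6Y (adjusted p = 0.36). Rars1 and Wars1, for arginine and tryptophan, had 0.08 and 0.09 with del9 (adjusted p = 0.021 and 0.031). With filterByExpr, Hars1, Kars1 and Rars1 kept their calls, at adjusted p = 0.0029, 0.041 and 0.043, and Wars1 did not, at 0.066. With all 3 groups in 1 model, Kars1, Rars1 and Wars1 were not called (adjusted p = 0.052, 0.057 and 0.072). With the length correction Kars1 was called (adjusted p = 0.037), and Rars1 and Wars1 were not (adjusted p = 0.077 and 0.083). Leaving out del9 replicate 5 or EV replicate 4 ended the calls of Kars1, Rars1 and Wars1. So did del9 replicates 2 and 3 for Kars1 and Wars1, EV replicates 1 and 3 for Rars1 and Wars1, and EV replicate 6 for Wars1, at log2 fold changes down to 0.07 and adjusted p up to 0.0681, 0.0955 and 0.195.

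The 10 synthetases without a call in any comparison had log2 fold changes between -0.07 and 0.03 against EV. The lowest was Lars1 with gdf6Y (-0.07, adjusted p = 0.14), which filterByExpr and DESeq2 called (adjusted p = 0.035 and 0.0028). In gdf6Y against del9, all 16 synthetases were below 0, between -0.06 and -0.01 with a median of -0.03, beside a median of -0.0094 over the 7518 abundant genes, and none was called. The share of the abundant genes below 0 is not given here. The 16 values come from the same samples under the same scaling, so they are not independent. By class, which is set by the fold of the catalytic domain, 2 of the 9 genes counted as class I and none of the 7 class II enzymes were called lower with gdf6Y. Eprs1, called lower in both comparisons with EV, was counted as class I, although its proline-charging part is of class II. With del9, 2 class I enzymes were higher and 1 lower, and 2 class II enzymes were higher. Of the 6 genes of the multisynthetase complex, 2 were lower with gdf6Y, and with del9 2 were higher and 1 lower. Beside these counts, 10.4% of the abundant genes were lower with gdf6Y, and 15.2% were higher and 10.6% lower with del9.

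The mean log2 CPM over the 36 genes with a mean of at least 10 reads was 7.66 ± 0.02 with EV (SD, n = 6), 7.63 ± 0.03 with gdf6Y (n = 5) and 7.64 ± 0.03 with del9 (n = 5). The groups overlapped, and the differences from EV were -0.04 and -0.02. By role, the transport score fell below the range of EV in every sample with an insert, with means of 7.28 for EV, 7.15 for gdf6Y and 7.19 for del9, and it rests on 3 genes of which Slc7a11 moved most. The synthetase score was 8.438 ± 0.0048 with EV, 8.415 ± 0.0123 with gdf6Y and 8.450 ± 0.0107 with del9. Its gdf6Y samples, from 8.394 to 8.426, lay below the lowest EV sample at 8.431 and the lowest del9 sample at 8.441. The stress score ranged from 5.96 to 6.13 within EV alone, more than any difference between its group means.

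**Figure D3:**
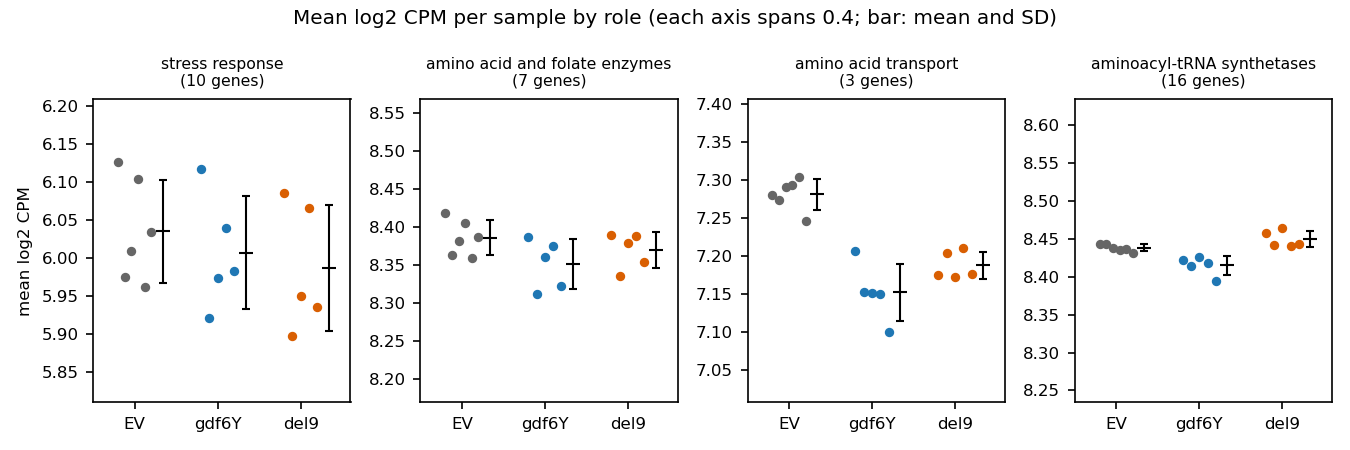
Mean log2 CPM (y axis) of the genes of each role in the EV, gdf6Y and del9 samples. Each point is 1 sample, in the order of its replicate number, the bar is the mean with the SD, and every panel spans 0.4 on the log2 scale. The mean of the stress genes spreads from 5.90 to 6.13 over all samples with overlapping groups. The mean of the 3 transport genes is lower with both inserts. Slc7a11 moved it most, and Slc7a5 was not lower with del9.

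The roles differed in how much their genes varied between samples of the same group. The coefficient of variation within groups, pooled over the 3 groups, had a median of 3.77% over the 7518 genes with a mean of at least 500 normalized counts (quartiles 2.95% and 4.79%). Among 10 stress genes the median was 5.31%, and among 16 synthetases it was 2.22%. Ddit4 varied by 13.4%, Nupr1 by 12.0%, Chac1 by 8.97% and Cebpb by 7.53%, and 99.4%, 99.1%, 97.8% and 95.9% of the abundant genes varied less. Lars1, the leucine enzyme, varied by 0.947%, the smallest value of the 7518 genes, and Aars1, the alanine enzyme, by 1.15%, at rank 5 from the smallest. Counting error alone gives about 1.02% for Lars1 and 0.763% for Aars1. Aars1 shares 12.1% of its exonic length with the neighbouring Exosc6, and the counting discarded reads that fit more than 1 gene.

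Abundant genes vary less, so each gene was also set beside genes within 2-fold of its own mean. Lars1 was then the least variable of 956 genes, and 8 of the 16 synthetases lay below the lower quartile of their peers. None of the 10 stress genes did, and 6 of them lay above the upper quartile. Atf4 itself varied by 2.37%, less than the other 9 stress genes.

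**Figure D4:**
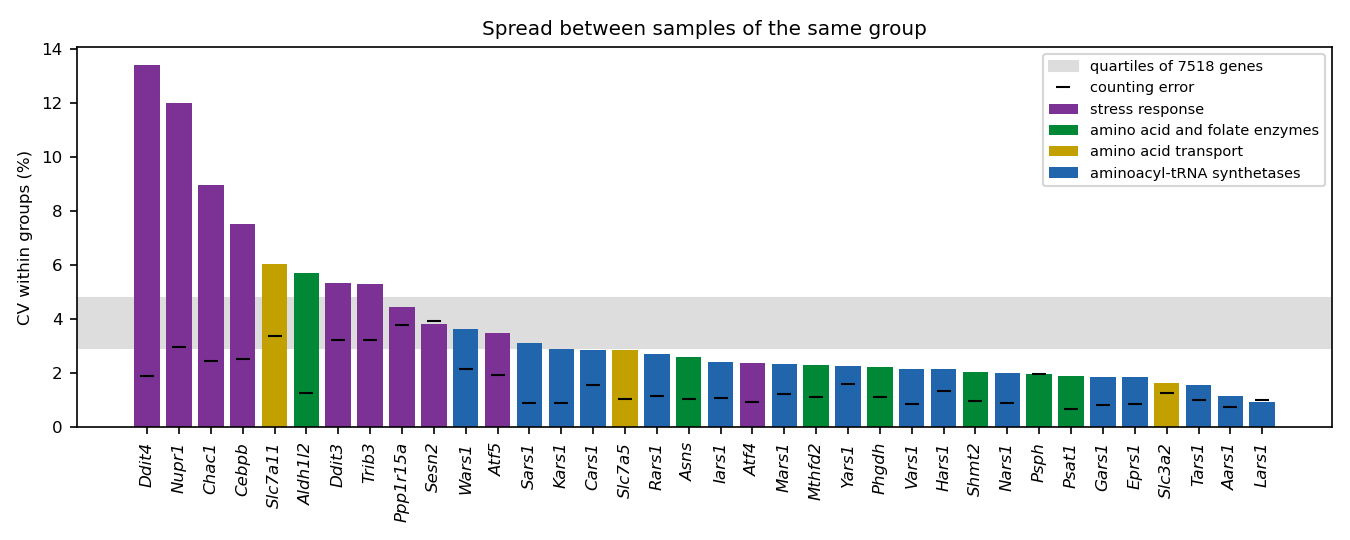
Coefficient of variation within groups, in percent (y axis), for 36 genes, coloured by role. The black marks show the value from counting error alone and the grey band the quartiles of 7518 genes, 2.95% and 4.79%. Ddit4, Nupr1 and Chac1 stand far above the band, and the synthetases lie below it except Sars1 and Wars1.

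Replicate 1 was often the highest sample, for the stress genes and over the 36 genes together. Of the 10 stress genes with a mean of at least 10 reads, replicate 1 held the highest value of its group for 5 genes in EV, 9 in gdf6Y and 6 in del9. The lowest values lay in EV replicate 5 for 5 genes, in gdf6Y replicate 2 for 5 and in del9 replicate 2 for 8. Over all 36 genes at this level, the 10 stress genes included, replicate 1 was highest for 14 in EV, 18 in gdf6Y and 16 in del9. Their lowest values lay in EV replicate 5 for 14 genes, in gdf6Y replicate 5 for 13 and in del9 replicate 2 for 17. The pattern was thus not particular to the stress genes, and its share over all genes is not given here. Nothing in the labels states what a replicate number stands for.

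Of 16 genes that act upstream, the eIF2 kinases, eIF2 and eIF2B subunits and their regulators, 1 was lower with gdf6Y, and with del9 4 were higher and 2 lower. Of the abundant genes, 10.4% were lower with gdf6Y, and 15.2% were higher and 10.6% lower with del9. Gcn1, which activates the amino acid sensing kinase GCN2, had a log2 fold change of -0.13 with gdf6Y (SE 0.03, adjusted p = 8.1e-05) and -0.06 with del9 (adjusted p = 0.20). A length correction ended the gdf6Y call, at -0.05 (adjusted p = 0.33). Eif2b1, a subunit of the exchange factor eIF2B, had 0.16 with del9 (SE 0.03, adjusted p = 0.00011), and Impact, an inhibitor of GCN2 activation, had -0.16 (SE 0.04, adjusted p = 0.00029). With gdf6Y, Eif2b1 had 0.08 and Impact -0.05, and neither was called.

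Of 22 further genes known as Atf4 targets, 4 were lower and none higher with gdf6Y, and 6 were lower and none higher with del9, with medians of -0.06 and -0.07. Lower calls made up 10.4% and 10.6% of the abundant genes and 3.38% and 4.43% of all genes tested. Slc38a2, the neutral amino acid transporter SNAT2, had a log2 fold change of -0.09 with gdf6Y (adjusted p = 0.015) and -0.13 with del9 (adjusted p = 2.2e-05), and its samples with an insert lay below all EV samples. Gpt2, a mitochondrial alanine aminotransferase, had -0.09 and -0.11 (adjusted p = 0.033 and 0.0033), not called with filterByExpr (adjusted p = 0.13 and 0.058). Vldlr, a lipoprotein receptor, had -0.20 with del9 (adjusted p = 1.1e-10, and 0.014 with filterByExpr). Its difference between gdf6Y and del9, 0.14 (adjusted p = 0.0031), was not called with filterByExpr (adjusted p = 0.52).

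Of 7 genes for the remaining cytosolic synthetase subunits and scaffold proteins, none was called with gdf6Y and 3 were higher with del9, where 15.2% of the abundant genes were called higher. These were the scaffold Aimp2 (0.16, SE 0.03, adjusted p = 2.1e-05), the phenylalanine enzyme subunit Farsa (0.12, SE 0.03, adjusted p = 0.0014) and Eef1e1 (0.10, adjusted p = 0.040). Of the 17 mitochondrial synthetases, none was called with gdf6Y and only Yars2 was higher with del9 (0.13, adjusted p = 0.035). Calls in either direction made up 15.7% of the abundant genes with gdf6Y and 25.8% with del9. Among all genes tested they made up 5.08% and 9.25%.

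Genes of protein folding in the endoplasmic reticulum, which are mainly under the other branches of the stress response to misfolded protein, were measured for comparison. Of 19 tested, 5 were higher and none lower with gdf6Y, and 8 were higher and none lower with del9. Higher calls made up 5.25% and 15.2% of the abundant genes and 1.70% and 4.82% of all genes tested. Creld2 had a log2 fold change of 0.25 with gdf6Y (SE 0.03, adjusted p = 9.9e-13) and 0.33 with del9 (SE 0.03, adjusted p = 1.4e-25). The chaperone Hspa5 (BiP) had 0.14 (SE 0.02, adjusted p = 5.3e-07) and 0.18 (SE 0.02, adjusted p = 8.9e-13), and Manf, a secreted resident protein, 0.12 and 0.15 (adjusted p = 0.0011 and 7.1e-06). Creld2 and Hspa5 were higher in every sample with an insert than in any EV sample. Between gdf6Y and del9, none of the 19 was called. Their part in the values of Slc7a11, Chac1 and Aldh1l2 was not tested.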

How the data were processed

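RNA of transfected TM4 cells was sequenced from poly(A) stranded libraries with unique molecular identifiers, made from 300.0 ng of RNA per sample. Alignment was to GRCm39 (STAR 2.7.10a, genes from Ensembl), UMI-tools collapsed PCR duplicates, and the authors deposited raw counts of uniquely mapped reads per gene from featureCounts (2.0.3), counted by strand, so values are deduplicated molecules. Replicate 6 of gdf6Y and of del9 was left out by the study. Depth was 21486850 to 26444903 counts per sample. Gene symbols and exonic lengths came from GENCODE for 56017 of the 56748 identifiers, and promoter sequences from RefSeq (GRCm38.p6), placed in GRCm39 by exact match.

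Samples were grouped by their labels. For each pair of groups, every gene counted at least 1 time in those samples was tested with edgeR 4.0.16 in R 4.3.3 (TMM scaling, quasi-likelihood F-test with the legacy dispersion estimate, 2 groups in the model, no covariates, two-sided), with Benjamini-Hochberg adjustment over all genes tested and calls below 0.05. The alternatives were DESeq2 1.42.0, DESeq2 size factors, filterByExpr, the newer dispersion estimate (legacy = FALSE), all 3 groups in 1 model, the replicate number as a block, a gene length correction (per-sample offsets from a lowess trend on exonic length) and leaving out each replicate. A robust dispersion estimate and filterByExpr with the replicate block were added after seeing the data. On simulated counts for gdf6Y against EV (24815 genes), 83% of changes of 0.5 and 94% of changes of 1 on the log2 scale were recovered, and 12.8% of calls were false, compared with 6.35% after filterByExpr (12701 genes), above the 5% that the threshold allows. Smaller changes, which include every called difference of the members, were not simulated. The score is the mean log2 CPM (prior count 2) over members with a mean of at least 10 counts, and it was not tested. The members and lists were chosen with earlier results of these data known. Values per sample are given for the 10 members with the smallest adjusted p-values among those called and for Atf4, and at most 3 genes of each other list are named, those with the smallest adjusted p-values.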

Additional observations from a re-analysis of the deposited data

Results flagged for a closer look

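The 13 genes called in any comparison, Atf4 and the scores were looked at in each group, 57 sets of values in all, and 2 held a sample that stood apart from the rest of its group by Dixon's criterion at the 95% level, where chance alone gives about 1 in 20, or 2.85. Hars1 had 5984 normalized counts in del9 replicate 3, while the other del9 samples lay between 5688 and 5749. The gap made up 0.794 of the range of the group. Rars1 had 7375 normalized counts in del9 replicate 1, below the other del9 samples at 7579 to 7613, and the gap made up 0.855 of the range.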

How the results depend on the processing

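For gdf6Y against EV, 7 of the 37 genes were called and between 5 and 10 under the alternatives, and for del9 against EV 12 were called and between 8 and 15. For gdf6Y against del9, the 1 call (Nupr1) became 0 with DESeq2, filterByExpr, the newer dispersion estimate, all 3 groups in 1 model and the robust estimate, and ranged from 0 to 1 without 1 replicate. Over all genes, the 1338 calls for gdf6Y against EV fell to 794 without gdf6Y replicate 5, and the 261 for gdf6Y against del9 became 81 with DESeq2, 45 with filterByExpr, 163 with the newer dispersion estimate, 441 without del9 replicate 1 and 160.0 without del9 replicate 2. The Atf4 difference from EV, not called in any fit, turned to -0.0149 (gdf6Y) and -0.0228 (del9) with the length correction and to -0.0201 and -0.0280 with the replicate block and the length correction together. Between gdf6Y and del9 it ranged from -0.00485 to 0.0236 without 1 replicate. The causes were not tested. The score over the 36 genes moved by less than the spread between replicates under every alternative run. The scores by role were not run under the alternatives.

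Samples with the same replicate number were compared by the correlation of their deviations from the group means over genes. It lay between 0.041 and 0.195 for gdf6Y and EV, between -0.051 and 0.155 for del9 and EV and between 0.0994 and 0.163 for gdf6Y and del9, so not every pair passed 0.1 and the numbers were not taken to pair the samples. With the replicate block, 10 of the 37 genes were called for gdf6Y against EV, 12 for del9 against EV and 2 for gdf6Y against del9, also 2 with the block and the length correction. Nupr1, called between gdf6Y and del9 with the block (adjusted p = 0.0019) and with filterByExpr and the block (adjusted p = 0.023), was higher with gdf6Y in 5 of 5 pairs of equal number. Over all genes the block gave 2061 calls for gdf6Y against EV (2269 after filterByExpr) and 661 for gdf6Y against del9 (639 with the length correction). A sample correlated best with its own number in 3, 1 and 2 of 5 pairs. Depth limits Gdf15, with at most 7 reads per sample.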
